A study of Bos taurus with 6 samples.

Results

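The regions described here were CpG positions of the bovine autosomes that carried almost no methylation in sperm and intermediate methylation in both somatic cell types of the study. A position was a member when the summed reads gave less than 10% methylation in sperm and 35 to 65% in both monocytes and fibroblasts, with a coverage of 10 to 500 reads in each of the 6 libraries. Of the 950004 positions of chromosomes 1 to 29 with this coverage, 3922 (0.413%) were members. A run was a chain of at least 5 members with no more than 1000 bp between neighbors, and 138 runs held 1196 of the members. The members were thus chosen by their percent methylation and coverage in these libraries, so their percentages are given below as a description, with no test between cell types. The difference between the replicates of a somatic cell type, which the summed reads of the rule did not fix, was tested.

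The study used reduced representation bisulfite sequencing (RRBS), in which CpG-rich fragments released by the enzyme MspI are treated with bisulfite and sequenced, so that the percent methylation of a CpG is the share of its reads that kept the cytosine. All 6 libraries came from Holstein cattle, and each came from a different animal. The 2 sperm libraries were made from commercial semen straws of bulls, and the 2 monocyte libraries from cow blood after selection with CD14 beads. The 2 fibroblast libraries were made from ear skin cells of adult heifers, grown to passage 11. No animal or culture received a treatment. Cell type and sex could not be told apart in any comparison with sperm, since the sperm donors were bulls and the somatic donors cows or heifers. Of the 3 cell types, the fibroblasts alone were cultured, and the sperm and fibroblast libraries were amplified over 14 PCR cycles against 12 for the monocyte libraries.

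Intermediate methylation of somatic DNA next to unmethylated sperm DNA is the pattern known from maternal imprints. At these control regions the oocyte sets methylation, sperm does not, and somatic cells keep one methylated copy of maternal and one unmethylated copy of paternal origin, which lets genes nearby be expressed from a single parental copy. A percentage cannot tell such a state apart from a mixture of methylated and unmethylated cells, and no reads were assigned to a parental copy here. No genome or annotation of the UMD3.1 build was used, so the runs are given by position, without sequence and without the genes they lie in.

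The summed coverage was between 45884839 and 78890776 reads per library, with a median of 9 to 14 reads per listed position and of 18 to 30 at the positions with the coverage of the rule. Across those positions Pearson's r between the replicates of a cell type was 0.986 for sperm, 0.980 for monocytes and 0.950 for fibroblasts, and between sperm and somatic libraries it was 0.704 to 0.760. The X chromosome had 0.556 and 0.6 of the autosomal median coverage in the sperm libraries and 0.867 to 0.923 in the somatic libraries.

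Intermediate methylation was uncommon in monocytes and less so in cultured fibroblasts, with 33789 positions (3.56%) from 35 to 65% in monocytes and 100151 (10.5%) in fibroblasts. Both somatic cell types were in this range at 9339 positions. Of these, sperm was below 10% at the 3922 members (42.0%), above 90% at 3425 and in between at 1992. Over all positions of this coverage, 47.9% were below 10% in sperm. The members were therefore not a larger share of the intermediate positions than sperm-unmethylated positions were of the whole.

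Members lay in runs more often than positions of the opposite class did. Of the 3922 members, 1276 had no other member within 1000 bp, 1450 lay in 578 chains of 2 to 4, and 1196 (30.5%) lay in the 138 runs, 36 of which had at least 10 members. The 3425 positions above 90% in sperm and intermediate in both somatic cell types, chained by the same rule, gave 26 runs that held 179 positions (5.23%), with 20 in the longest. Measured positions were denser around the members, with a median of 28 positions within 250 bp against 13 around the opposite class, and the part of density in the number of runs was not tested.

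Most members had no methylated read in sperm. The average over the 3922 members was 2.16% and 2.10% in sperm replicates 1 and 2, 51.9% and 49.2% in monocytes, and 45.9% and 50.3% in fibroblasts. At 2036 members (51.9%) neither sperm library had a methylated read. With a median of 45 sperm reads at those members, a count of 0 allows a methylation of up to 6.67%. The median member had 39 summed reads in monocytes, of which 20 methylated reads would give a 95% Wilson interval of 36.2 to 66.1%, and 55 in fibroblasts, where 28 methylated reads would give 38.1 to 63.6%. These limits cover counting error only, and a single member was thus measured with an error about as wide as the somatic range of the rule. All 4 somatic libraries were separately within 35 to 65% at 945 members (24.1%).

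Members in runs were closer to 0 in sperm than isolated members. In runs, sperm replicates 1 and 2 averaged 1.04% and 1.35%, monocytes 51.1% and 46.7%, and fibroblasts 45.7% and 51.8%. At single members the sperm values were 3.30% and 3.09%, the monocyte values 52.4% and 50.9% and the fibroblast values 45.5% and 48.8%. No methylated sperm read was found at 785 members of runs (65.6%), at 752 members of chains of 2 to 4 (51.9%) and at 499 single members (39.1%). The median difference between monocytes and fibroblasts was 0.144 points in runs and 4.999 points at single members, with monocytes higher in both. More than 100 reads in at least 1 library were found at 11% of the single members, 0.753% of the members in runs and 1.80% of all positions, and the part of this high coverage in the values of single members was not tested.

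The limits of the rule did not fall in a gap of the distribution in any of the cell types. Among positions intermediate in both somatic cell types, 2036 were at 0% in sperm, 1206 above 0 and up to 5%, 680 from 5 to 10%, and, just outside, 427 from 10 to 15%. In monocytes 795 members were at 60 to 65%, and 982 positions that met the other limits were at 65 to 70%. In fibroblasts 828 members were at 35 to 40%, and 900 positions that met the other limits were at 30 to 35%. The somatic limits therefore divided a continuous range. Of the chains, 46 had exactly 5 members and 77 had exactly 4, just below the size of a run.

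The longest run lay on chromosome 9, at chr9:97661833-97664551 (2719 bp), where 50 of the 65 positions with the coverage of the rule were members. Its members averaged 0.555% and 0.719% (sperm), 53.4% and 48.7% (monocytes) and 45.04% and 46.7% (fibroblasts). The replicates of each cell type were less than 5 points apart, and the 4 somatic averages spanned 45.04 to 53.4%. The second run, at chr18:64290380-64291981 (1602 bp), had 29 members among 47 positions. It averaged 0.820% and 1.43% (sperm), 49.3% and 49.2% (monocytes) and 54.3% and 41.9% (fibroblasts), so that the fibroblast libraries were the farthest apart. The third, at chr13:58036644-58038273 (1630 bp), had 27 members among 30 positions and averaged 0.463% and 0.443% (sperm), 40.7% and 53.2% (monocytes) and 46.5% and 55.6% (fibroblasts). In all of these the sperm values stayed near 0 over the whole run, as the plot of single positions shows.

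**Figure D1:**
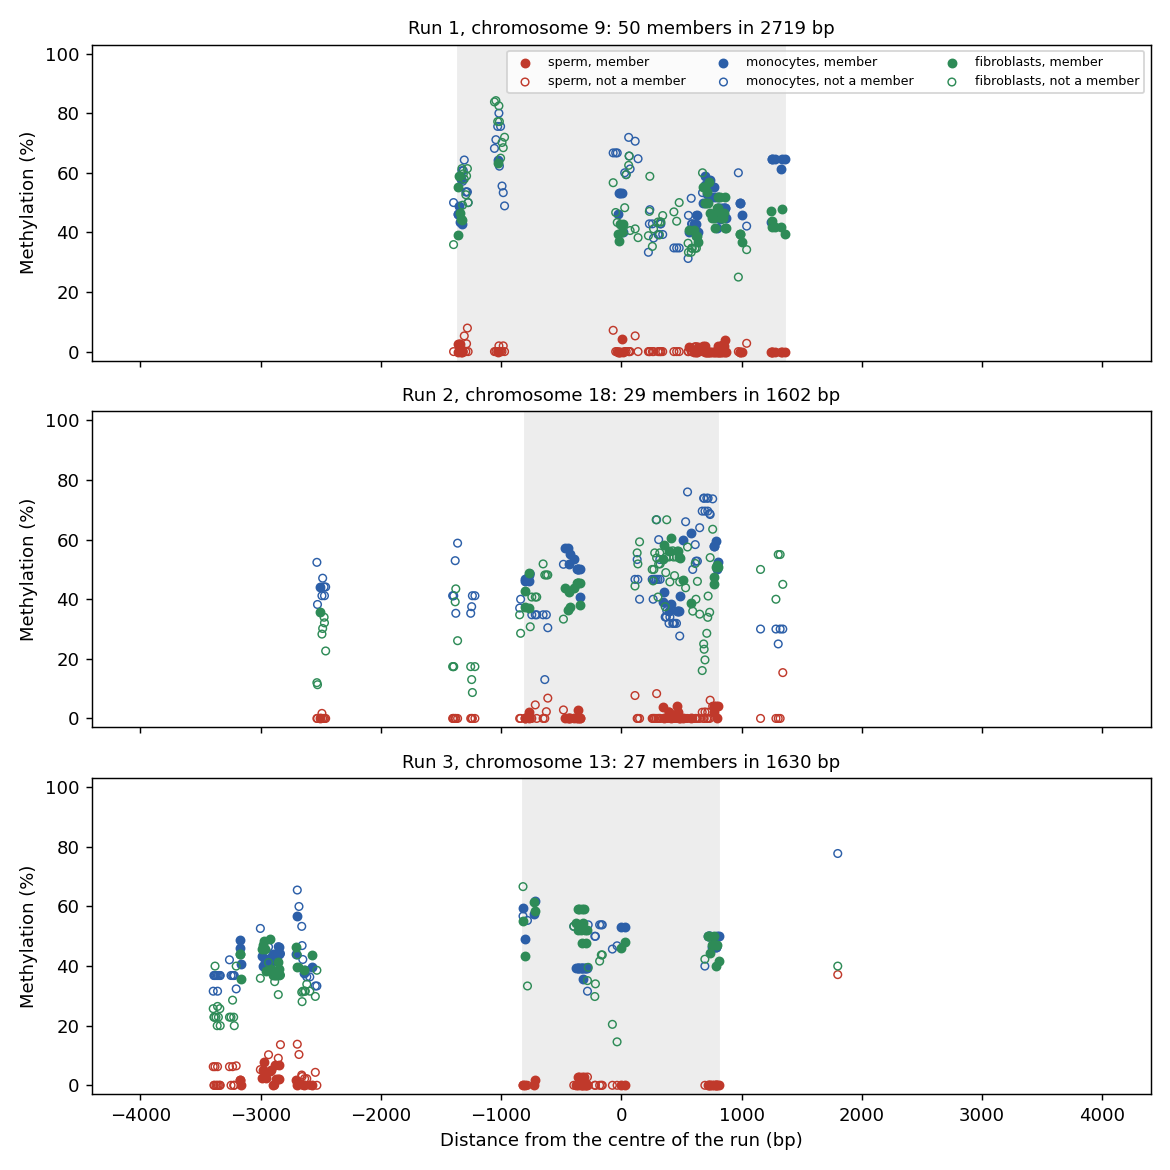
Percent methylation from the summed reads of each cell type (y axis) against the distance from the centre of the run in bp (x axis), for the 3 runs with the most members, at all positions covered by 5 to 500 reads in all 6 libraries. Filled points are members, open points are other positions and the grey band is the run; inside the bands sperm lies near 0, and monocytes and fibroblasts lie mostly between 30 and 80%.

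Chromosome 13 held 4 of the 15 runs with the most members, all within 23791 bp. Besides the one above, chr13:58055788-58056772 had 24 members and averaged 3.04% and 3.86% (sperm), 46.2% and 30.7% (monocytes) and 50.5% and 37.4% (fibroblasts). At chr13:58034285-58034883, 20 members averaged 2.47% and 3.13% (sperm), 39.9% and 47.9% (monocytes) and 31.2% and 50.9% (fibroblasts). At chr13:58046166-58047683, 18 members averaged 4.42% and 5.33% (sperm), 40.8% and 50.6% (monocytes) and 38.8% and 47.4% (fibroblasts). The sperm averages of these 3 runs were the highest among the 15. The last of them was also the most mixed, since its 7 positions below the coverage of the rule averaged 35.1% and 29.4% in sperm.

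A wide split between libraries was seen in the fourth run, at chr23:3227315-3227714, where 25 of 27 positions were members. Its members averaged 64.3% and 50.2% in monocytes, with sperm at 0.211% and 1.47%. The fibroblast libraries averaged 30.4% and 67.5%, on the opposite sides of the limits. The fibroblast split was not seen at the 7 positions of this run below the coverage of the rule, which averaged 57.1% and 54.05% in fibroblasts. At chr11:106338987-106340631, 23 of 88 positions were members and averaged 1.17% and 0.971% (sperm), 59.7% and 46.3% (monocytes) and 34.7% and 53.8% (fibroblasts). This run was sparse, with 26.1% of its positions members.

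At the members, the 4 somatic libraries were closer in the eighth and the ninth run than in the fourth run. At chr27:32796921-32797514, 20 members averaged 0.294% and 0.906% (sperm), 54.2% and 43.3% (monocytes) and 55.9% and 47.2% (fibroblasts). At chr9:102810466-102811189, 19 members averaged 1.46% and 0.994% (sperm), 44.1% and 58.5% (monocytes) and 48.0% and 46.8% (fibroblasts). The closeness was not kept at positions below the coverage of the rule. In the ninth run 15 of these averaged 31.65% and 63.14% (monocytes) and 59.3% and 33.76% (fibroblasts). The 1 such position of the eighth run had 33.33% and 55.56% (monocytes) and 12.5% and 18.18% (fibroblasts). At chr18:64308034-64308632 on the chromosome of the second run, 16 members averaged 0.160% and 0.195% (sperm), 48.2% and 52.8% (monocytes) and 40.3% and 60.04% (fibroblasts). The sperm libraries of the last run were thus nearly free of methylated reads.

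The remaining 4 of the 15 had 15 members each. At chr15:46287970-46288674 the averages were 0.303% and 0% (sperm), 50.9% and 43.2% (monocytes) and 43.4% and 52.7% (fibroblasts). Members were 24.2% of the 62 positions of this run. Its 5 positions below the coverage of the rule averaged 31.1% and 27.2% (monocytes) and 16.9% and 16.0% (fibroblasts). At chr21:30754193-30754649 the members averaged 1.61% and 1.33% (sperm), 59.4% and 40.9% (monocytes) and 43.4% and 62.3% (fibroblasts). On the same chromosome, chr21:67448629-67449085 had 0.196% and 1.00% (sperm), 43.6% and 52.5% (monocytes) and 53.4% and 46.1% (fibroblasts). The smallest of the 15, at chr4:75048514-75048824 (311 bp), had 0% and 0.318% (sperm), 43.3% and 37.7% (monocytes) and 43.3% and 49.5% (fibroblasts). In 11 of the 15 runs all 4 somatic averages were within 35 to 65%, and the highest sperm average of any library was 5.33%.

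**Figure D2:**
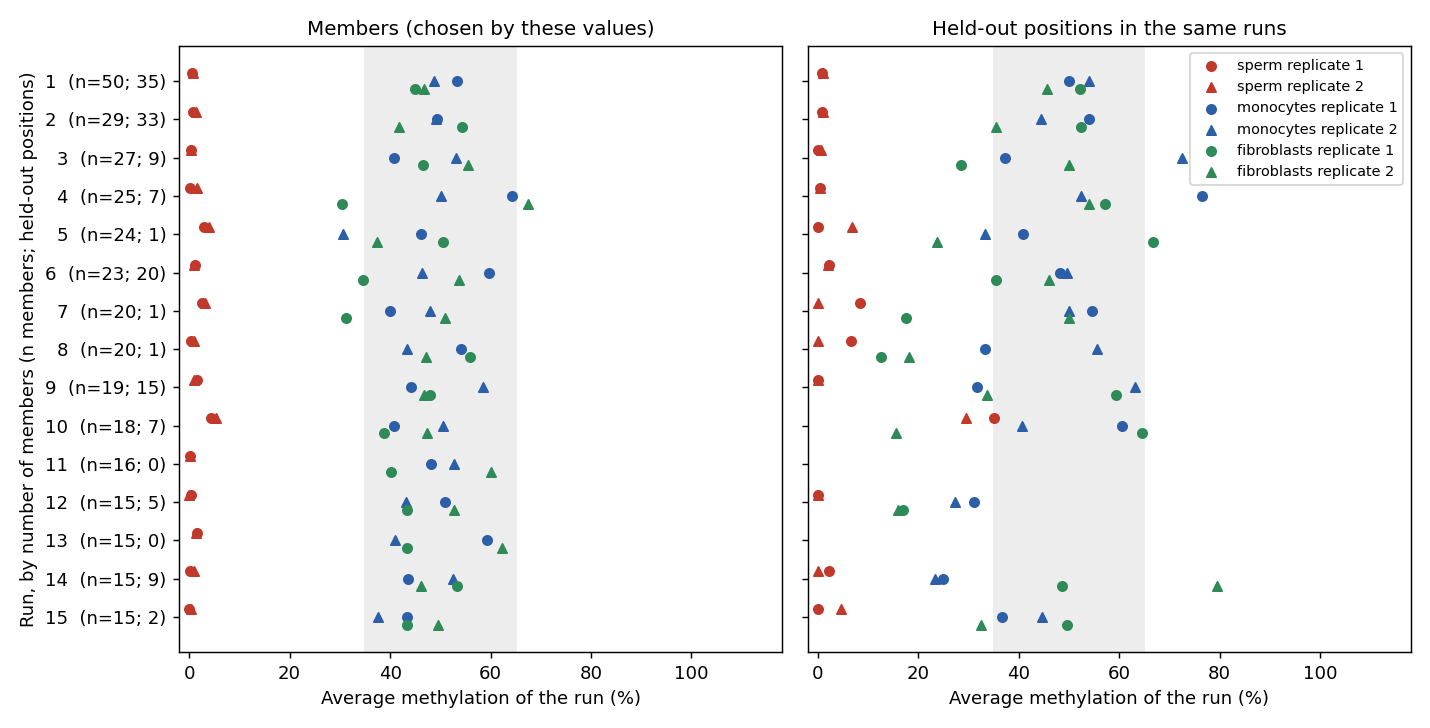
Average percent methylation of each library (x axis) in the 15 runs with the most members (y axis, with the number of members and of held-out positions), at the members on the left and at the held-out positions, which the rule could not use, on the right. The grey band marks 35 to 65%; sperm lies below 10% in both panels other than at the held-out positions of run 10, and the somatic libraries spread more widely on the right, where few positions were averaged.

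The 138 runs had a median length of 255 bp (33 to 2719 bp) and a median of 6 members. Fragments were up to 290 bp long, so members of a run can share fragments and are not separate measurements. Of the 2650 positions with the coverage of the rule inside them, 1196 (45.1%) were members, and in 12 runs every such position was one, the largest being chr4:11911384-11912117 and chr9:82474082-82474403 with 12 members each. Of the 1454 non-members inside runs, 84 had 10% or more in sperm. A somatic cell type below 35% and none above 65% accounted for 803, a somatic type above 65% and none below 35% for 532, and 1 type on each side for 35. Departures inside the runs were therefore mostly in the somatic values.

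Where every library had to meet the limits by itself, 858 members and 14 runs were left, and the longest of these kept 21 members within chr9:97661833-97664551. With a coverage of at least 20 reads in every library, 822 members and 12 runs were left, led by 12 members within chr5:117711374-117711877. Each of these runs lay in 1 of the 138, but a single one, at chr4:75048514-75048824, was left under both. The stricter coverage removed most positions, whatever their values.

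The next question was whether the intermediate percentages were alike in the animals of a cell type, which the rule, set on summed reads, did not fix. The reads of the replicates were compared at each position by Fisher's exact test, two-sided, with Benjamini-Hochberg adjustment over all 950004 positions. Between the monocyte libraries 41 members (1.05%) differed at an adjusted p below 0.05, against a background of 0.229% of all positions and 2.78% of the positions from 35 to 65% in monocytes. Between the fibroblast libraries 226 members (5.76%) differed, against 1.23% of all positions and 4.62% of those from 35 to 65% in fibroblasts. Read against intermediate positions, the share of members called was lower between the monocyte libraries and slightly higher between the fibroblast libraries. The test compares the libraries of 2 animals, not a condition, and at this depth it finds wide differences alone, with a median difference over the members of 12.9 points in monocytes and 16.4 points in fibroblasts.

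The share of members called was lowest in runs, a difference that was not tested. The median difference between replicates was nevertheless larger in runs than at single members. It was 13.92 against 11.54 points in monocytes and 16.99 against 14.55 points in fibroblasts. Median coverage in replicates 1 and 2 was lower in runs, at 20 and 17 against 23 and 18 reads in monocytes. In fibroblasts it was 23 and 29 against 26 and 31, and the part of coverage in the calls was not tested. In monocytes, 7 members of runs (0.585%) were called, against 12 members of chains of 2 to 4 (0.828%) and 22 single members (1.72%). In fibroblasts, the counts were 55 (4.60%), 94 (6.48%) and 77 (6.03%). The shares at all positions from 35 to 65% were 2.78% in monocytes and 4.62% in fibroblasts. Neither comparison called any member in 108 runs, whereas 29 runs held a member called in fibroblasts and 2 held one called in monocytes. A run without a call need not be alike in its animals. The fourth run had none, with fibroblast averages of 30.4% and 67.5%. Of the 15 runs with the most members, 2 had a fibroblast call and 1 had a monocyte call, with 1 member each.

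In some runs an average of the cell type near 50% was made of a high and a low animal. These runs were chosen after their values were seen, and calls at members of 1 run can rest on the same fragments. At chr13:64131643-64131837 the 6 members averaged 5.66% in monocyte replicate 1 and 97.9% in replicate 2, and all 6 were called. Fibroblasts averaged 60.4% and 23.5% there, with sperm at 2.27% and 10.1%. The split was also present at the 1 held-out position of this run, with 12.5% and 100% in monocytes. At chr28:39523299-39523409, 5 of 6 members were called between the fibroblast libraries, which averaged 78.8% and 17.1%. At chr29:51070292-51070602, 4 of 6 members were called, with fibroblast averages of 19.8% and 76.3%. Over all runs, the monocyte averages were more than 30 points apart in 8 and the fibroblast averages in 18, with median differences of 8.73 and 12.6 points. All 4 somatic averages of the members were within 35 to 65% in 86 runs.

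**Figure D3:**
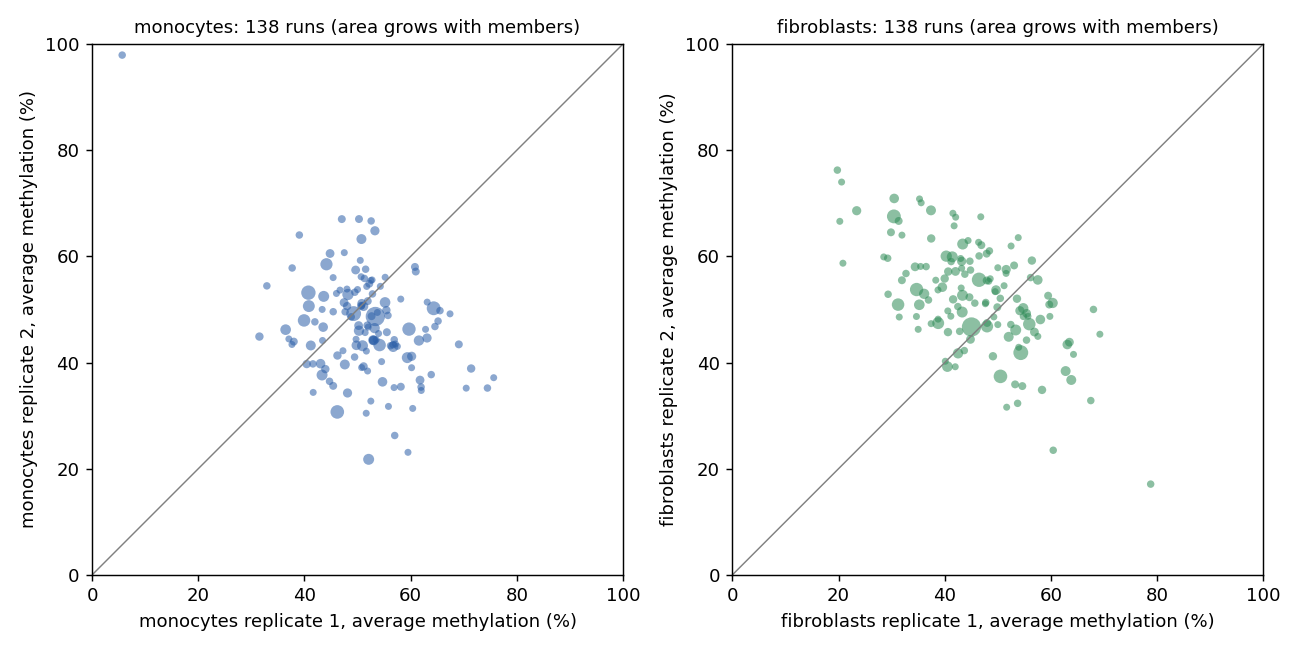
Average percent methylation of the members of each of the 138 runs in replicate 2 (y axis) against replicate 1 (x axis), for monocytes on the left and fibroblasts on the right, with a point area that grows with the number of members. The falling slope follows from the rule, which holds the sum of the replicates between limits; the distance from the diagonal is the difference between animals, widest for the run at 5.66% and 97.9% in monocytes.

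The pattern was then measured at positions that the rule had not used. These held-out positions were covered by 5 to 500 reads in all 6 libraries but by fewer than 10 in at least 1. There were 592056 on the autosomes, and 433 lay inside 68 of the runs, with a median of 12 reads per library. Of the 433, 2 lay more than 290 bp from every member, so nearly all can share fragments with members. The values below are therefore no independent support for the pattern. Inside the runs the held-out positions averaged 1.63% and 1.81% (sperm), 45.9% and 44.8% (monocytes) and 43.2% and 46.4% (fibroblasts). This is 1.72% ± 0.126 for sperm, 45.4% ± 0.713 for monocytes and 44.8% ± 2.27 for fibroblasts (SD, n = 2). Both sperm libraries were below all 4 somatic libraries, and the somatic average was 43.4 points above the sperm average (exact permutation test over the 6 libraries, two-sided, p = 0.0667, the smallest p that 2 against 4 libraries can give). Over all held-out positions the averages were 54.2% and 53.8% (sperm), 58.0% and 57.8% (monocytes) and 48.8% and 49.3% (fibroblasts), and the groups overlapped (exact permutation p = 0.8).

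Position by position, both sperm libraries were below all 4 somatic libraries at 357 of the 433 held-out positions (82.4%), against a background of 12.0% of all held-out positions. Sperm was below 10% at 96.5% of them, against 40.3%. Monocytes were within 20 to 80% at 80.8%, against 10.7%, and fibroblasts at 80.1%, against 28.7%. All percentages of the rule were met at 138 (31.9%), against 0.379% of all held-out positions. Logistic regression of the summed reads on cell type, tested by its likelihood ratio at an adjusted p below 0.01 and a difference of at least 25 points, gave 300 (69.3%) higher in monocytes than in sperm, against 11.5% of all held-out positions. It called 313 (72.3%) higher in fibroblasts than in sperm, against 10.3%, and it called no position inside the runs lower in either. Without sperm replicate 1 the monocyte count was 192, and without sperm replicate 2 it was 195. Summed reads hold no variance between animals, and only the library averages above have animals as replicates. Both used positions that can share fragments with members, so neither is independent support for the pattern.

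Single runs varied in how closely their held-out positions followed the members. In the longest run, 35 held-out positions averaged 0.786% and 0.952% (sperm), 50.0% and 53.9% (monocytes) and 52.3% and 45.7% (fibroblasts). In the second run, 33 averaged 0.938% and 1.14% (sperm), 54.1% and 44.5% (monocytes) and 52.4% and 35.4% (fibroblasts). At chr3:107032079-107032771, chosen after its values were seen, 9 members averaged 50.2% and 47.0% in monocytes, whereas 11 held-out positions averaged 4.01% and 1.67%. Of the 32 runs with at least 5 held-out positions, 30 had both sperm averages below all 4 somatic averages, the exceptions being this run and chr13:58046166-58047683. Another 70 runs had no held-out position.

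Held-out positions near a member can lie on the same fragments, which were up to 290 bp long. Inside the runs 2 held-out positions lay farther than 290 bp from every member, and neither met all percentages of the rule. A set of 550 held-out positions within 1000 bp of a run but more than 290 bp from every member, at 70 runs, was therefore taken after the data were seen. These averaged 6.24% and 6.65% (sperm), 46.1% and 43.8% (monocytes) and 40.5% and 45.4% (fibroblasts), a difference of 37.5 points (exact permutation p = 0.0667). Sperm stayed below all 4 somatic libraries at 291 (52.9%), against 12.0% of all held-out positions. Sperm was below 10% at 88.0%, against 40.3%. Both somatic cell types were within 20 to 80% at 131 (23.8%), against 5.90% of all held-out positions. All percentages of the rule were met at 28 (5.09%), against 0.379%. The averages near 45% were thus made largely of positions outside the intermediate range, whereas inside the runs both somatic cell types were within 20 to 80% at 301 (69.5%) of the held-out positions.

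The deposited tables also listed some positions 1 bp apart in different libraries and never in the same one, which kept them out of the rule. Where such neighbors were joined as 1 CpG, a step chosen after seeing the data, 41687 CpGs had 10 to 500 reads in all 6 libraries, and 34 lay inside 24 of the runs. Of the 34, 1 lay more than 290 bp from every member, so nearly all can share fragments with members. All 34 were below 10% in sperm, and 11 (32.4%) met the percentages of the rule, against 0.439% of all joined CpGs. They averaged 0.322% and 1.46% (sperm), 43.5% and 38.8% (monocytes) and 38.5% and 43.6% (fibroblasts). Both sperm libraries were below all 4 somatic libraries at 29 (85.3%), against 19.3%.

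Around isolated members the order of the cell types was the same, with higher values in sperm. Positions within 250 bp of a member can share its fragments, so this order is no independent support for the pattern. Within 250 bp of members of runs, 1124 held-out positions averaged 2.13% and 1.99% (sperm), 47.5% and 46.5% (monocytes) and 43.7% and 48.6% (fibroblasts). Around chains of 2 to 4, 2532 positions averaged 2.96% and 2.71% (sperm), 43.8% and 41.9% (monocytes) and 37.6% and 40.1% (fibroblasts). Around single members, 3427 averaged 6.49% and 6.31% (sperm), 47.5% and 45.5% (monocytes) and 40.5% and 41.9% (fibroblasts).

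Sperm averages were higher with distance from the runs, whereas the somatic averages varied less, a description with no test. From 1 to 100 bp outside a run, 884 positions averaged 1.87% and 2.29% (sperm), 48.4% and 46.9% (monocytes) and 44.3% and 49.1% (fibroblasts). From 501 to 1000 bp outside, sperm averaged 10.1% and 9.91%, monocytes 36.6% and 35.6%, and fibroblasts 33.3% and 36.9%. From 1001 to 2000 bp outside, sperm averaged 35.7% and 35.04%, monocytes 49.7% and 48.7%, and fibroblasts 42.5% and 43.8%. On average the sperm libraries were therefore below the somatic libraries up to 2000 bp. The distances rest on different sets of runs, with 133 at 1 to 100 bp, 63 at 501 to 1000 bp and 61 at 1001 to 2000 bp. The part of this change of runs in the averages was not tested. From 2001 to 5000 bp outside, sperm averaged 50.0% and 49.3%, which was within the range of fibroblasts and monocytes. No member of a run lies within 1000 bp outside it by construction.

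**Figure D4:**
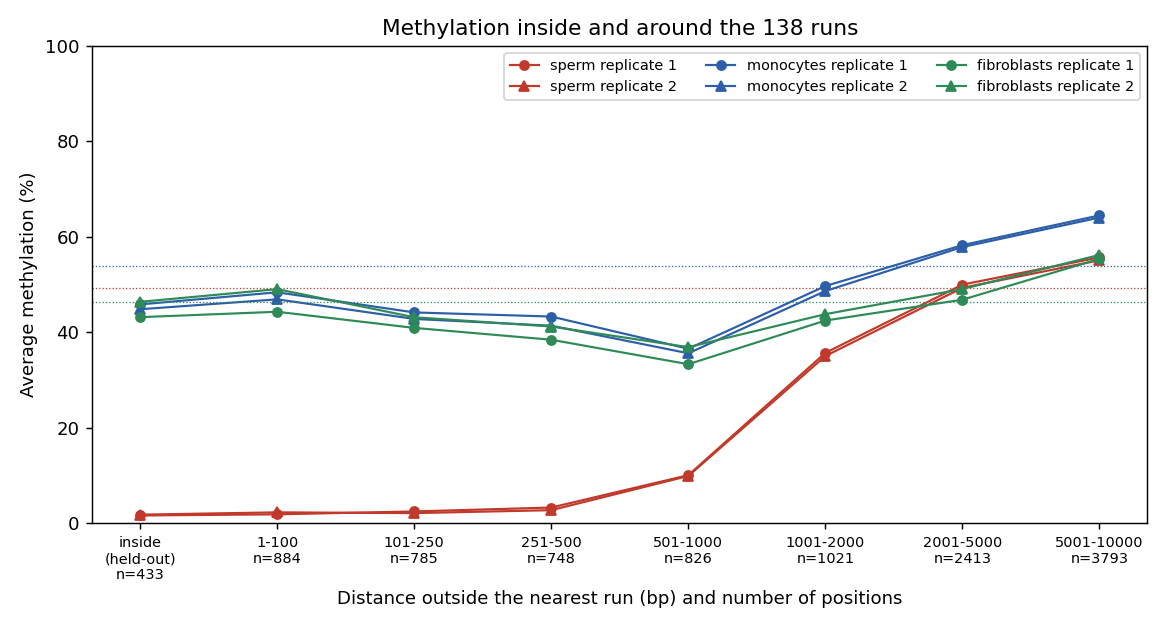
Average percent methylation of each library (y axis) at held-out positions inside the 138 runs and at all positions covered by 5 to 500 reads by distance outside the nearest run in bp (x axis, with the number of positions). The distances rest on different sets of runs. Dotted lines are the averages of each cell type over all autosomal positions; sperm goes from 1.63% and 1.81% inside to 55.7% and 55.1% at 5001 to 10000 bp, while the somatic libraries stay between 33.3 and 64.5%.

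These averages joined runs in unlike surroundings. Of 88 runs with at least 5 positions from 1001 to 5000 bp outside, sperm averaged less than 20% there at 29 and more than 80% at 32. Monocytes averaged less than 20% at 18 and more than 80% at 42, and fibroblasts less than 20% at 20 and more than 80% at 18. Monocytes were at least 25 points above sperm at 15 of the 88 and at least 25 points below at 1. Fibroblasts were that far above sperm at 12 and that far below at 14.

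Members were found on all 29 autosomes, and each autosome had at least 1 run. The share of positions that were members was highest on chromosomes 9 (0.768%), 27 (0.744%) and 7 (0.671%) and lowest on chromosome 17 (0.227%). Chromosome 7 had 14 runs, chromosome 18 had 12 and chromosome 21 had 9. Members in runs lay in dense stretches, with a median of 37 measured positions within 250 bp, against 26 for chains of 2 to 4, 23 for single members and 24 for all positions. Positions below 10% in sperm had a median of 36, so that the density around runs was close to that of sperm-unmethylated positions in general.

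Some runs lay within 50000 bp of each other, a grouping made after the data were seen. At chr7:53580336-53694371, 6 runs with 36 members were spread over 114036 bp, and all 236 positions with the coverage of the rule in this stretch were below 10% in sperm. At chr13:58032982-58056772, 5 runs held 97 members of 192 positions, and 119 of the positions were below 10% in sperm with none above 90%. At chr18:64290380-64308632, 2 runs held 45 members of 101 positions, all of which were below 10% in sperm. The stretches thus differed in how many of their positions, inside and between the runs together, were below 10% in sperm.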

How the data were processed

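The 6 RRBS libraries, 2 per cell type, were grouped by their labels. MspI fragments of 40 to 290 bp were sequenced as 75 bp paired-end reads. Per the submitters' processing notes, Trim Galore 0.3.7, Bismark 0.14.3, Bowtie, FastQC and methylKit were used, on UMD3.1. The deposited tables give, per CpG, the coverage as counts of reads without normalization and the methylation as a percent of these reads. The authors' percent values were multiplied by the coverage and rounded to recover methylated reads, and 100% were recovered within 0.1 point. Depth per library and its precision are given above.

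The percent of a cell type was taken from the summed reads of its 2 libraries, and averages over positions weighted positions equally. Replicates were compared by Fisher's exact test (adjusted p below 0.05), held-out positions by the likelihood-ratio test of a logistic regression (adjusted p below 0.01 and 25 points) and library averages by exact permutation. The tests were run on simulated data first. The tools were numba 0.67.0, pandas 2.3.3, scipy 1.17.1 and numpy 2.4.6 in Python 3.11.15, with matplotlib 3.10.9 for plots.

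The members, lists and tests were chosen with earlier results of these data known. The regions named are the 15 runs with the most members, the longer first in ties, and others are marked as chosen after their values were seen. A list of genes with known imprints was prepared but not used, as no UMD3.1 annotation was used here. Alternatives were other limits of coverage and percentage, other tests and thresholds, and leaving out each library. The X chromosome was left out of the rule.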

Additional observations from a re-analysis of the deposited data

Results flagged for a closer look

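On the X chromosome, which the rule left out, 818 of 12539 positions (6.52%) met its coverage and percentages, against 0.413% on the autosomes. This is a signal in data outside the comparisons above. Of these positions 424 (51.8%) lay in 54 runs, with 34 in the longest. Sperm came from bulls and somatic cells from cows or heifers, and sex and cell type cannot be told apart.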

How the results depend on the processing

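The number of members followed the limits of the rule. Members and runs numbered 6165 and 221 at a coverage minimum of 5, 822 and 12 at 20, 1807 and 46 with a somatic range of 40 to 60%, 7417 and 306 with 30 to 70%, and 858 and 14 with every library inside the limits. There were 36 runs of at least 10 members. With a library left out in turn, 3655 to 4405 members and 115 to 146 runs were found, and 92 to 133 of the 138 runs overlapped one of these. Members called between replicates at an adjusted p below 0.01 were 27 in monocytes and 107 in fibroblasts. At a coverage of 20 they were 15 and 58, and by logistic regression 360 were called in fibroblasts. The share of all positions called was not taken for these alternatives, so the counts are not a result about the members. Leaving out a library was not applicable to these calls, which need both.

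Of the 433 held-out positions, 192 to 238 were called between monocytes and sperm with a library left out. This was 44.3 to 55.0%, against 13.7 to 15.2% of all held-out positions, in either direction. Between fibroblasts and sperm 212 to 276 (49.0 to 63.7%) were called, against 18.9 to 24.6%. The monocyte count was 192 without sperm replicate 1 and 195 without sperm replicate 2. Among the 2 over 290 bp from every member, 1 was called in each comparison. The difference of the averages was 42.91 to 43.98 points with a library left out (exact permutation p 0.1 to 0.2, where fewer arrangements exist). With a replicate block, 229 (52.9%) and 271 (62.6%) positions were called, against 15.5% and 23.8% of all held-out positions. Same-numbered libraries, which came from different animals, did not deviate together (r from -0.00133 to 0.000853). Depth limits single positions, 2 animals per cell type limit every statement on a cell type, and p below 0.05 could not be reached over libraries.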
